A study of Mus musculus with 16 samples.

Results

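The genes of 6 secreted protease inhibitors of the male tract, Spink8, Spinkl, Wfdc13, Wfdc2, Wfdc8 and Eppin, were followed through 16 RNA sequencing libraries of mouse spermatozoa. They were taken by name, for their protein families and their known expression in the epididymis, and make up 6 of the 24062 gene rows of the count table. All 6 were among the 13149 genes that passed the filter on low counts. Male mice entered the study at 3 weeks of age and then ate either a high-fat, high-calorie diet (HFD, 8 mice) or the matching control diet (CD, 8 mice) for 9 weeks. Motile sperm were then collected, 2 ng of their total RNA was amplified to cDNA, and 250 ng of that cDNA went into each library. Since the design text counts 8 mice per diet, each library was taken as 1 animal. The mouse strain is not stated in the sources used here.

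Sperm leave the testis immature and acquire motility and the capacity to fertilise in the epididymis, a long duct whose epithelium secretes proteins that coat them. Protease inhibitors belong to that secretion and restrain proteases of the sperm and of the duct. Kazal inhibitors (the SPINK family) and WAP four-disulfide core inhibitors (the WFDC family) block proteases with small folds held by disulfide bonds, and Kunitz inhibitors (the SPINT family) do so with another fold. Most mouse WAP genes lie side by side on chromosome 2, mixed with Kunitz genes. Eppin and Wfdc8 carry both WAP and Kunitz domains in 1 protein.

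Wfdc2, Eppin, Wfdc8 and Wfdc13 lie in that order on chromosome 2 (GRCm38, the assembly that mm10 denotes), and all are protein-coding. Wfdc2 runs from 164562413 to 164568510 on the plus strand, Eppin from 164588343 to 164593594 on the minus strand, Wfdc8 from 164596458 to 164613626 on the minus strand and Wfdc13 from 164685107 to 164687706 on the plus strand. Spink8, also protein-coding, lies on chromosome 9, from 109812280 to 109826633 on the plus strand. Wfdc8 shares 105 exon bases with Wfdc6b on the opposite strand, and since the strand setting of the counting is not stated, it is not known whether reads there were assigned to 1 of them. Promoter sequence of GRCm38.p6 from RefSeq matched 3 of the 6 genes, Wfdc2, Eppin and Wfdc8. Eppin and Wfdc2 gave the closest correlation among the 6 over 14 of the 16 libraries. The stretches before their RefSeq starts that fall in no GENCODE exon are therefore printed. They read 5′ to 3′ on the strand of each gene, with CG dinucleotides in capitals. The first covers chr2:164593595-164593821 on the minus strand and the second chr2:164562475-164562578 on the plus strand. The RefSeq start used for Wfdc2 lies inside the gene as GENCODE bounds it, so the second stretch lies between annotated exons and not upstream of the whole gene.
Eppin: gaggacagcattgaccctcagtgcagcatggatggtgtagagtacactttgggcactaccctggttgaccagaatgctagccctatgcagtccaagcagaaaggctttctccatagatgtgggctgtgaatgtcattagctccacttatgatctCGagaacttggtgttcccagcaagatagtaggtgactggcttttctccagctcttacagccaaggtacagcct
Wfdc2: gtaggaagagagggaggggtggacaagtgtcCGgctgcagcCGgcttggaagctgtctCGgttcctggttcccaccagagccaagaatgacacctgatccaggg
The Eppin stretch of 227 bases has 1 CG and 49.8% G and C, and the Wfdc2 stretch of 104 bases has 3 CG and 60.6%. Over the full 250 bases before the RefSeq start, Wfdc2 had 14 CG, more than 76.9% of 19827 mouse promoters, Wfdc8 had 6 and Eppin 3, against a median of 4. GENCODE exons cover 146 of those bases for Wfdc2, 247 for Wfdc8 and 23 for Eppin. TATAAA, searched on both strands, occurred in 14.9% of those promoters and in that of Wfdc8, 246 bases before its start. AGAACA, a half-site of steroid receptors searched on both strands, occurred in 17.8% of promoters and in none of the 3. The 1 match among the 3 genes overlapped no other, and a match or its absence describes these letters only.

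HFD 4 and HFD 8 stood apart from the other 14 libraries. The 11 genes of a broad epididymal list, among them Crisp1, Lcn5 and Gpx3, summed to 11212 CPM (counts scaled to the gene total of each library) in HFD 4 and 7361 in HFD 8, against 27039 to 62741 CPM in the others. The 25 genes of a late spermatid list summed to 26901 and 60278 CPM in the same libraries, against 2693 to 14610 CPM in the others. Transcripts of that list were thus measured in every library. Whether they came from the labelled spermatozoa or from other germ cells was not tested. A list of 14 meiotic genes reached 3210 in HFD 4 and 2555 in HFD 8, and no more than 926 CPM elsewhere. The same pair held 713 and 842 CPM of 8 leukocyte genes, against 143 to 778 in the others, and 790 and 753 CPM of 8 stromal genes, against 225 to 634. Basal and clear cell genes (7) summed to 83.0 to 307 CPM over all libraries. HFD 4 also had the fewest gene counts, 1882555, and CD 2 the most, 7783981. Reads in no gene feature made up 76.1% of counted reads in HFD 4 and 75.0% in HFD 8, against 58.0% to 67.9% in the others. Reads in genes made up 8.02% and 9.16%, against 10.3% to 20.1%. The ribosomal RNA precursor Rn45s took from 2.31% of gene counts in CD 2 to 24.1% in CD 8. In bulk RNA of this kind, fewer cells of a type and less RNA per cell cannot be told apart.

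Spink8 and Wfdc13 were among the most abundant messenger RNAs in these preparations, and the 6 genes spanned a wide range of levels. In TPM, the counterpart of CPM in which counts are first divided by exon length, Spink8 averaged 41526 ± 15742 (SD, n = 16) and ranked 2nd of 22708 genes, and Wfdc13 averaged 22009 ± 10246 and ranked 4th. Eppin followed at 1040 ± 421 (rank 103), then Wfdc8 at 491 ± 258 (rank 223), Spinkl at 133 ± 68.4 (rank 955) and Wfdc2 at 19.2 ± 13.8 (rank 6083). The levels of Spink8 exceeded those of Wfdc13 in 15 of 16 libraries, by 2.01-fold at the median, with 0.860-fold in CD 5 and 5.82-fold in CD 2. Eppin lay above Wfdc8 in 14 of 16 libraries, by 2.70-fold at the median, and their ranges overlapped (156 to 1652 and 39.0 to 934). The other neighbours kept their order in all 16 libraries. As counts, the 6 genes took 0.239% of gene counts in HFD 8, 0.415% in HFD 4 and 1.43% to 2.64% in the other 14, and Spink8 with Wfdc13 supplied 92.9% to 97.3% of them.

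**Figure D1:**
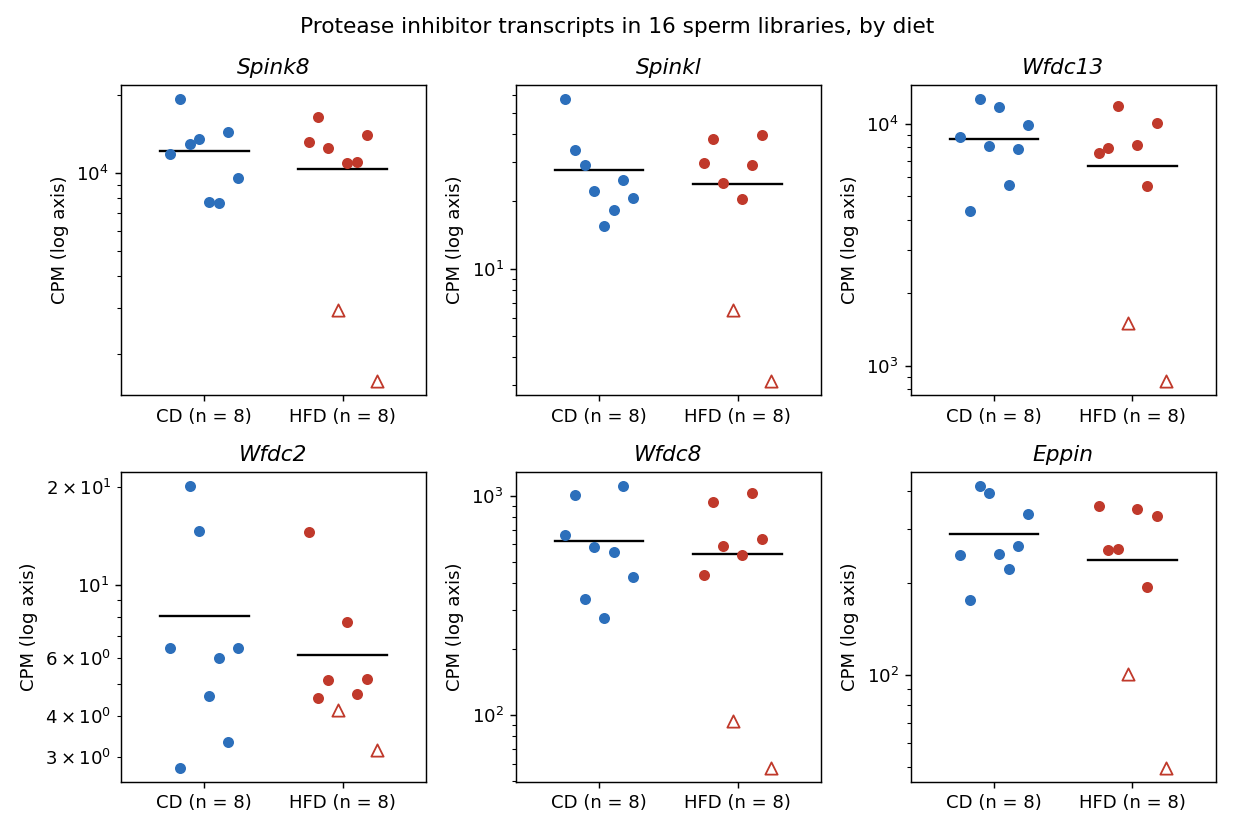
CPM of the 6 inhibitor genes on log axes, 1 point per library by diet, with a line at the mean of each diet (n = 8). Open triangles are HFD 4 and HFD 8, which lie below every CD library for each gene but Wfdc2, while the other 6 HFD libraries lie inside the CD range.

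The series asks whether paternal diet alters the sperm transcriptome. None of the 6 genes passed the test: edgeR's quasi-likelihood test gave adjusted p from 0.776 to 0.898, and 0 of 6 had an unadjusted p under 0.05. Across all 13149 genes 0% passed at an adjusted p under 0.05, and 11.3% had an unadjusted p under 0.05. All 6 fitted log2 fold changes (HFD over CD) were below 0, with a median of -0.25 against -0.0042 over all genes tested. DESeq2 called 1 gene of the table, none of the 6. Without HFD 4 and HFD 8, 4 of the 6 were above 0 and the median was 0.07, again with 0 of 6 at an unadjusted p under 0.05, against 2.17% of 13448 genes.

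The Kazal gene Spink8 is known from the epididymal epithelium. In CPM scaled by edgeR's trimmed mean of M-values (TMM), its HFD values ran from 1573 in HFD 8 through a median of 11790 to 16523 in HFD 2. Its CD values ran from 7687 in CD 6 through a median of 12390 to 19356 in CD 2. The groups overlapped: 6 of 8 HFD libraries lay inside the CD range and HFD 4 (2948 CPM) and HFD 8 lay below it. The HFD mean was 10348 ± 5303 CPM and the CD mean 12133 ± 3891 (SD, n = 8 each). The log2 fold change of Spink8 was -0.23 ± 0.40 (SE), with a 95% interval of -1.06 to 0.60 and an edgeR adjusted p of 0.850. In the 14 other libraries Spink8 stood at 0.12, where edgeR gave an adjusted p of 0.9997.

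Spinkl encodes a Kazal-like protein that was described from mouse seminal vesicle fluid (chromosome 18, 44166356 to 44175074, minus strand). It ran from 3.14 CPM in HFD 8 through 26.7 to 39.5 in HFD 7, and from 15.6 in CD 5 through 23.6 to 57.5 in CD 1. HFD 4, at 6.55 CPM, and HFD 8 were again the only HFD libraries outside the CD range, and their values rest on 11 and 9 reads. Means were 23.9 ± 13.4 CPM in HFD and 27.8 ± 13.4 in CD, and the log2 fold change was -0.21 ± 0.41 (SE), with an edgeR adjusted p of 0.867. Leaving out HFD 4 and HFD 8 gave 0.13 for Spinkl, and leaving out CD 1 alone gave 0.04. Of 8 markers of the seminal vesicle and other accessory glands, Svs3a, Svs3b and Pbsn had no read, and the 8 summed to 2.22 to 27.9 CPM of gene totals per library, where Spinkl ran from 2.94 to 65.02. The sum was 12.4 CPM in HFD 8, above Spinkl there (2.94), and 27.9 in CD 3. The part of such RNA in the values of Spinkl was not tested. Of 595 windows of 50 bases in its exons, 7 also occur in Spink11, so a few of its reads could belong to that gene.

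Wfdc13 encodes a small WAP protein and is the most abundant gene of the chromosome 2 cluster here. Its values ran from 865 CPM in HFD 8 through 7760 to 11810 in HFD 3, and from 4351 in CD 2 through 8418 to 12644 in CD 3. HFD 4 (1499 CPM) and HFD 8 lay below all CD libraries, and CD 2, with the most gene counts and the most Spink8, held the least Wfdc13 of the other 14. Means were 6674 ± 3858 CPM in HFD and 8605 ± 2826 in CD, with a log2 fold change of -0.37 ± 0.43 (SE) and an edgeR adjusted p of 0.776. The 14 libraries gave -0.0094 for Wfdc13.

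Wfdc2, also called HE4, has WAP domains and is made by many epithelia as well as the epididymis. It was the scarcest of the 6, with 7 to 76 reads per library. Values ran from 3.14 CPM in HFD 8 through 4.89 to 14.6 in HFD 1, and from 2.78 in CD 2 through 6.21 to 20.1 in CD 3. Here all 8 HFD libraries lay inside the CD range, and HFD 4 (4.17 CPM) and HFD 8 stood at 0.746 and 0.562 of the median of the other 14, where the other 5 genes stood at 0.0983 to 0.385. Means were 6.14 ± 3.66 CPM in HFD and 8.04 ± 6.10 in CD, with a log2 fold change of -0.37 ± 0.45 (SE) and an edgeR adjusted p of 0.784. The same 14 libraries gave -0.18 for Wfdc2.

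Wfdc8, with WAP domains and a Kunitz domain, ran from 57.5 CPM in HFD 8 through 564 to 1032 in HFD 6, and from 276 in CD 5 through 566 to 1108 in CD 7. HFD 4 held 93.4 CPM, and the medians of the diets were nearly equal. Means were 539 ± 349 CPM in HFD and 618 ± 301 in CD, and the log2 fold change was -0.20 ± 0.47 (SE), with an edgeR adjusted p of 0.898. With HFD 4 and HFD 8 left out Wfdc8 stood at 0.18. Its highest libraries were CD 7, HFD 6, CD 2 and HFD 2, where Gpx5, a glutathione peroxidase of the proximal epididymis (caput), stood at 996, 6414, 1999 and 2608 CPM. HFD 5, with the most Gpx5 (7826 CPM), held 538 CPM of Wfdc8, near its median. HFD 8, with the least Wfdc8 (57.5 CPM), held 1871 CPM of Gpx5. Over the libraries other than HFD 4 and HFD 8, Wfdc8 and Gpx5 had a Pearson's r of 0.72. Spearman's rho was 0.61 there and 0.46 over all 16 libraries, each given without a test. The 13 genes of the caput list summed to 326 to 9487 CPM per library, and the part of that spread in the values of Wfdc8 was not tested.

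Eppin, the epididymal peptidase inhibitor, sits on the sperm surface, where it meets semenogelin-type coagulum proteins, lactotransferrin and clusterin. It ran from 49.9 CPM in HFD 8 through 258 to 357 in HFD 1, and from 176 in CD 2 through 257 to 416 in CD 3. HFD 4 held 101 CPM, and the other 6 HFD libraries lay inside the CD range. Means were 237 ± 115 CPM in HFD and 288 ± 84.8 in CD, with a log2 fold change of -0.28 ± 0.33 (SE) and an edgeR adjusted p of 0.776. Eppin stood at 0.02 when those libraries were left out. Sertoli cells are a known second source of Eppin, and 8 Sertoli markers summed to 14.9 to 66.7 CPM per library, with Fshr at 0. Of its partner list, Clu had 3722 ± 2807 CPM in HFD and 4666 ± 3855 in CD, and Ltf 111 ± 102 and 127 ± 77.1. The seminal vesicle partners Svs2, Svs3a and Svs3b did not pass the filter.

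**Figure D2:**
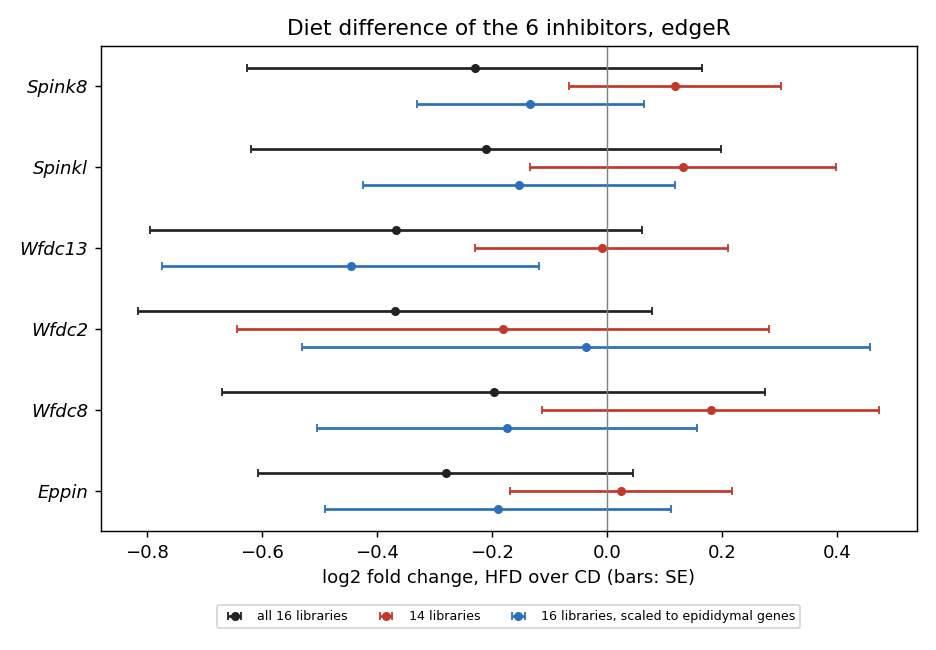
Log2 fold change (HFD over CD) of each gene from edgeR, with bars of 1 SE, for all 16 libraries, for the 14 without HFD 4 and HFD 8, and for 16 libraries scaled to the 11 epididymal genes. With all libraries the 6 points lie between -0.37 and -0.20, and without the 2 libraries between -0.18 and 0.18.

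Measured against epididymal RNA in place of all RNA, the 6 genes parted. Spink8 stood at 278 ± 30.8 counts per 1000 counts of the 11 epididymal genes (SD, n = 16), from 200 in HFD 8 to 315 in HFD 2, so its 12.3-fold range in CPM came down to 1.57-fold. In the 14 libraries without HFD 4 and HFD 8 its coefficient of variation was 6.93% on this scale and 25.3% in CPM. Spinkl ran from 0.40 to 1.26, and all but CD 1 lay at or below 0.744. Wfdc13 ran 6.11-fold from 67.4 in CD 2 to 412 in CD 5, against 14.6-fold in CPM. Its coefficient of variation was 43.4% over 16 libraries against 44.7% in CPM, and 40.7% over the 14 against 28.9%. Wfdc8 ran from 7.33 in HFD 8 to 24.1 in HFD 6 and Eppin from 2.73 in CD 2 to 10.7 in CD 8. Wfdc2 ran 10.3-fold, from 0.043 in CD 2 to 0.443 in CD 3, and HFD 8 and HFD 4 were high on this scale, at 0.400 and 0.332. HFD 4 and HFD 8 were the lowest libraries for Spink8 (235 and 200) and not for Eppin (8.01 and 6.35). The scale has counts of the list in each denominator, so a library's value moves with the makeup of the list as well as with the gene.

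**Figure D3:**
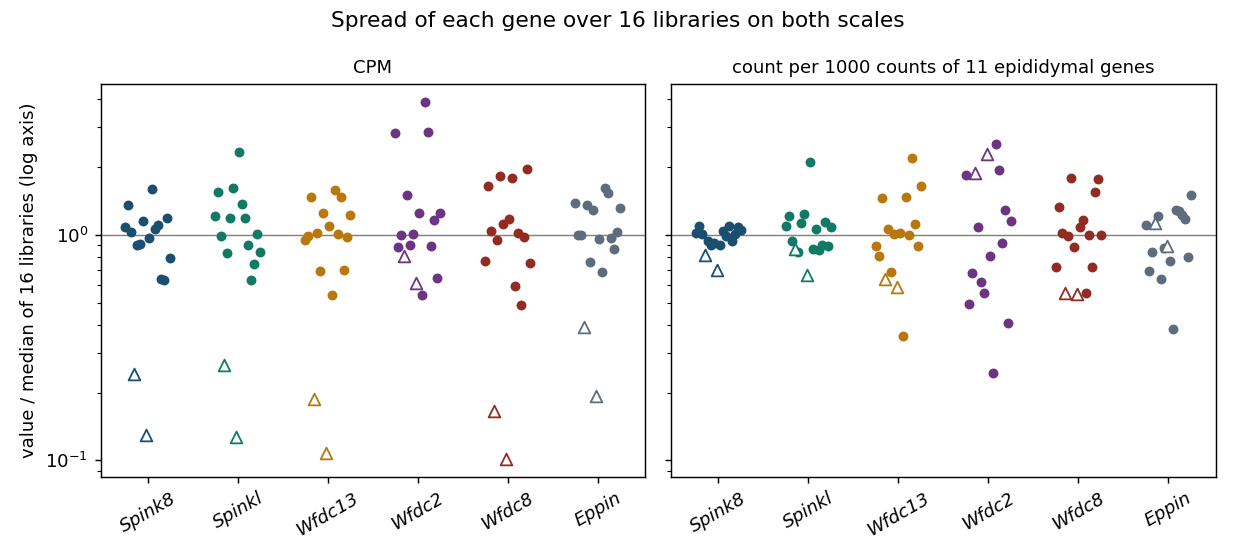
Value of each gene in each of 16 libraries divided by the median of that gene, on log axes, in CPM (left) and per 1000 counts of 11 epididymal genes (right). Open triangles are HFD 4 and HFD 8. Spink8 draws together on the right, from a 12.3-fold to a 1.57-fold range, and Wfdc2 spreads from 7.24-fold to 10.3-fold.

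Scaling the diet comparison to the epididymal list gave log2 fold changes of -0.13 for Spink8, -0.15 for Spinkl, -0.45 for Wfdc13, -0.04 for Wfdc2, -0.17 for Wfdc8 and -0.19 for Eppin, on a scale where the median of all genes moved to 0.58. None of the 6 passed edgeR's test there. With HFD 4 and HFD 8 also left out, the median of all genes was -0.26, Wfdc13 stood at -0.30, Wfdc2 at -0.39, Eppin at -0.23, Spink8 and Spinkl at -0.05, and Wfdc8 at 0.02.

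Between animals, Eppin rose and fell with Wfdc2. Over the 14 libraries without HFD 4 and HFD 8, Pearson's r of their log2 CPM was 0.81 (permutation p = 0.00032, adjusted over 15 pairs 0.0048) and Spearman's rho was 0.76 (permutation p = 0.00254, adjusted 0.0381). Without CD 3 and CD 4, the farthest from the median, r was 0.69, and within diets it was 0.87 in 8 CD and 0.69 in 6 HFD libraries. The libraries highest in Wfdc2 were CD 3, CD 4 and HFD 1, which were also the 3 highest in Eppin, and CD 2 was lowest in both. Wfdc2 rests on 12 to 76 reads in these libraries. None of the other 14 pairs passed, with the smallest adjusted permutation p at 0.0631. Wfdc8 had negative r with Wfdc13 (-0.65), Wfdc2 (-0.59) and Eppin (-0.57), and positive r with Spink8 (0.60). With all 16 libraries 11 of 15 pairs passed by Pearson's r, with HFD 4 and HFD 8 low in 5 of the genes. By Spearman's rho, Spink8, Spinkl and Wfdc8 passed with each other there (0.71 to 0.78). Eppin passed with Wfdc13 (0.66) and Wfdc2 (0.81), and no other pair passed by rho. Pearson's r of Wfdc2 with Eppin was 0.65 over these 16, below Spink8 with Spinkl (0.93) and Wfdc13 with Eppin (0.93). The negative r of Wfdc8 did not hold with all 16 libraries: r was 0.69 with Wfdc13, 0.04 with Wfdc2 and 0.66 with Eppin. Spearman's rho for the same 16 libraries was -0.04, -0.21 and -0.02. Scaled to the epididymal list, Wfdc13 with Eppin passed as well, at r = 0.82 (adjusted permutation p 0.00472), and Wfdc2 with Eppin stood at 0.84 (adjusted permutation p 0.00195).

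**Figure D4:**
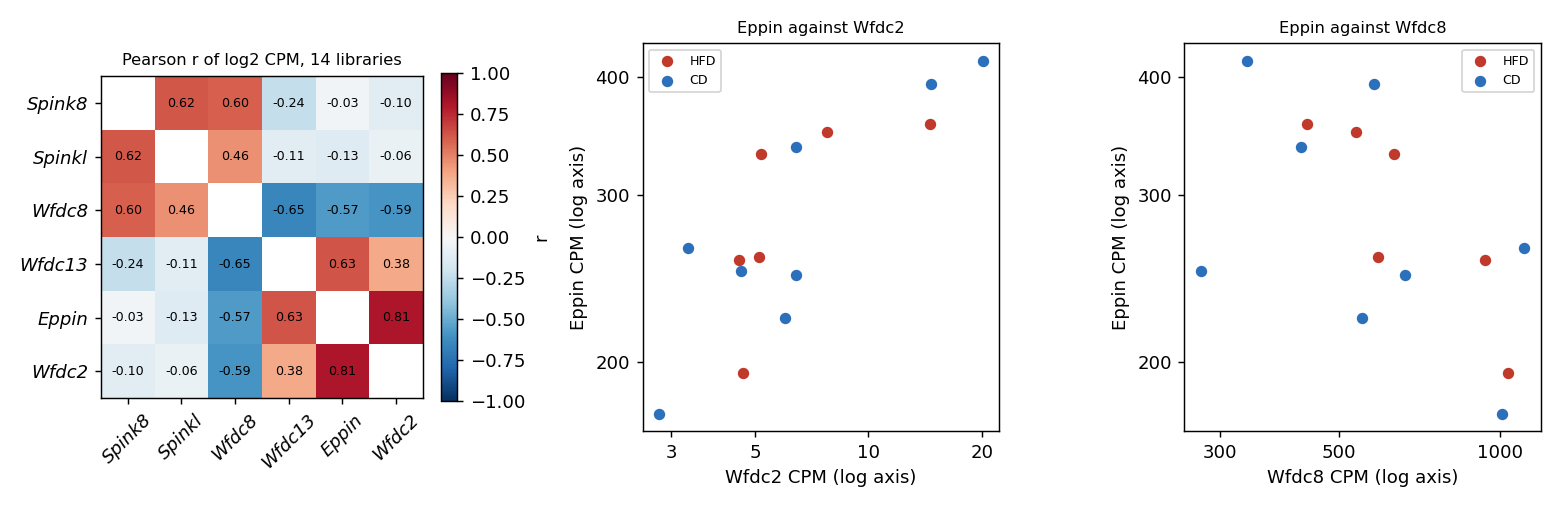
Pearson's r between the log2 CPM of the 6 genes over 14 libraries (left, colour from -1 to 1), and Eppin against Wfdc2 (centre) and against Wfdc8 (right) in CPM on log axes, 1 point per library coloured by diet. Eppin climbs with Wfdc2 (r = 0.81), and the r of -0.57 with Wfdc8 did not pass.

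The 6 genes were then set against 29 others, the tested genes of the SPINK, WAP and Kunitz lists and 6 epididymal genes, over the same 14 libraries. Of 174 relations, 28 passed by Pearson's r and 14 by Spearman's rho, with permutation p adjusted over the 174. How many genes outside these lists would pass was not counted, so the numbers do not set inhibitors apart from other genes. Wfdc8 had 8 that passed by r, all positive. Its r was 0.93 with the Kazal gene Spink12 (rho 0.79, adjusted permutation p 0.00087 and 0.0220, r 0.89 without CD 2 and CD 5). With Lcn5, the epididymal retinoid carrier, it was 0.89 (rho 0.84, adjusted permutation p 0.0029 and 0.0136, r 0.83 without CD 2 and CD 5). Spink11 (0.85), Rnase9 (0.83), Wfdc9 (0.82), Adam7 (0.79), Spink5 (0.79) and Spink2 (0.77) made up the rest for Wfdc8, and all but Spink2 passed by rho.

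Wfdc13 showed the opposite sign with several of those genes. Its r was -0.80 with Spink11, -0.77 with Spink12, -0.77 with Lcn5 and -0.70 with Spink5, and 0.77 with Wfdc16 and 0.74 with Wfdc6a. With Gpx3, a secreted glutathione peroxidase, r was 0.85 (rho 0.73, adjusted permutation p 0.00565 and 0.0464, r 0.82 without CD 2 and CD 8). By rho, Gpx3 and Spink12 passed for Wfdc13 and the other 5 did not. Eppin had r of 0.77 with Wfdc16 and 0.74 with Wfdc6a, neither of which passed by rho. These values come from animals whose libraries also differ in epididymal sum, and the part of that sum in the correlations was not tested.

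Among these genes Spink8 was closest to Wfdc10, an abundant WAP gene, with r = 0.90 (rho 0.89, adjusted permutation p 0.00087 and 0.00348, r 0.78 without CD 5 and CD 6). Adam7 (0.82), Rnase9 (0.81), Wfdc9 (0.80), Spint1 (0.78), Spink10 (0.73) and Lcn5 (0.69) also passed by r for Spink8. Of these 6, Rnase9 and Wfdc9 passed by rho, and without the farthest 2 libraries r with Lcn5 was 0.36 and with Spint1 0.47. Spinkl passed with Spink10 (0.74), Spint2 (0.70), Wfdc10 (0.68) and Crisp1 (0.68), of which Spink10 passed by rho. Wfdc2 passed with none of the 29.

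Among 7513 genes with a mean of at least 20 CPM, the 3 with the highest Spearman's rho to each gene over the 14 libraries were listed as a description. Spink8 was nearest to Map3k2 (0.94), Psme2 (0.93) and AY761185 (0.92). Spinkl was nearest to Nampt (0.92), Nck1 (0.89) and Tmem123 (0.88), and Wfdc13 to Slc6a6 (0.92), Dpp6 (0.89) and Trim67 (0.88). For Wfdc8 they were Fam63b (0.90), the mucin Muc15 (0.89) and the beta-defensin Defb19 (0.89), for Eppin Fbxo10 (0.90), Iqgap1 (0.89) and Ppp5c (0.88), and for Wfdc2 they included Dgki (0.88) and Xrcc1 (0.82). Over all 16 libraries rho fell to 0.38 for Xrcc1, 0.49 for Iqgap1 and 0.57 for Nck1, and was 0.71 or more for the other 14 named.

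Eppin, Wfdc8 and Wfdc13 lay in a run of abundant inhibitors on chromosome 2, between the scarce Wfdc2 and Wfdc3. The interval from Wfdc5 to Wfdc3 (164176327 to 164745931 on GRCm38) holds 33 protein-coding genes, of which 32 are in the table, and 19 of them are WAP or Kunitz inhibitors. Of the 19, 17 passed the filter and 14 had a mean above 100 TPM. From Spint3 to Spint5 every gene, all of them inhibitors, exceeded that level, with Wfdc13 at 22009 TPM, Wfdc10 at 6807, Spint4 at 6511 and Spint5 at 3204. Wfdc2, the next gene on the other side of Spint3, stood at 19.2 beside 2054 for Spint3. At the other end Wfdc3, next after Spint5, stood at 8.23 TPM. The interval ends with Wfdc3, and genes past it were not looked at. Farther off, beyond Wfdc2, Wfdc15b reached 2605 TPM and Wfdc15a 104.5. The 6 seminal vesicle secretory genes in the interval had 40 reads in all 16 libraries together, and Svs3a and Svs3b had none.

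**Figure D5:**
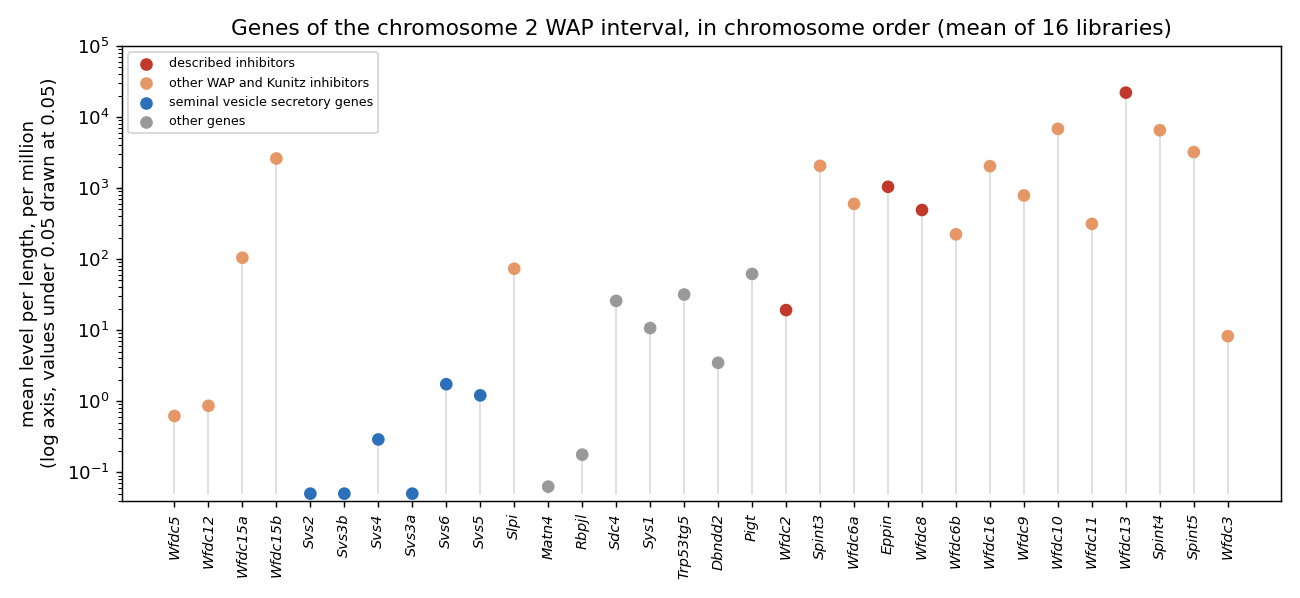
Mean level per length (TPM) of the 32 genes of the chromosome 2 interval in chromosome order (log axis, mean of 16 libraries). Wfdc13 is highest at 22009, Wfdc2 lies at 19.2, and the seminal vesicle secretory genes lie at or below 1.73.

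No list of related genes had a member past an adjusted p of 0.05 in edgeR's test. Of 11 other SPINK genes in the table, 6 were tested, 1 with a fold change above 0 and 5 below (median log2 fold change -0.28, and 0.06 without HFD 4 and HFD 8). Spink11 averaged 770 ± 678 CPM in HFD and 1226 ± 1502 in CD, Spink5 719 ± 753 and 1116 ± 1451, Spink12 380 ± 305 and 413 ± 394, and Spink10 332 ± 153 and 351 ± 147. Of 18 other WAP genes 11 were tested, 4 above 0 and 7 below (median -0.12, and 0.15 without the 2 libraries). Wfdc10 averaged 972 ± 410 CPM in HFD and 1081 ± 238 in CD, Wfdc16 682 ± 360 and 793 ± 270, Wfdc15b 467 ± 215 and 509 ± 152, and Wfdc6a 155 ± 71.1 and 184 ± 63.5.

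Wfdc15a stood at 89.3 CPM in HFD 4 and 90.0 in HFD 8, where late spermatid and meiotic sums were also highest, against a mean of 7.87 ± 3.26 in CD. Its log2 fold change was 1.87 ± 0.65 (SE), with an edgeR adjusted p of 0.434, and 0.18 without those libraries. The part of the spermatid and meiotic sums in it was not tested. Slpi, the secretory leukocyte protease inhibitor, had a log2 fold change of 0.64 ± 0.29 (SE) and an edgeR adjusted p of 0.434. Of the 11 tested WAP genes beyond the 6, Wfdc15a and Slpi had an unadjusted edgeR p under 0.05 with all libraries. Over all genes 11.3% did. With 14 libraries Wfdc3 alone of the 11 did, against 2.17% of all genes. Its log2 fold change was -1.09 there and 1.03 with all 16, where Wfdc3 stood at 39.3 CPM in HFD 4 and 27.2 in HFD 8. These 3 were singled out after their values were seen.

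Of 8 Kunitz genes 6 were tested, 2 above 0 and 4 below (median -0.11, and 0.17 without the 2 libraries). Spint4 averaged 1510 ± 1285 CPM in HFD and 1702 ± 911 in CD, Spint5 426 ± 302 and 514 ± 327, Spint3 369 ± 193 and 379 ± 129, and Spint2 258 ± 121 and 359 ± 89.3. Of the serpin and macroglobulin list 6 of 8 were tested, 5 above 0 and 1 below (median 0.31, and 0.11 without the 2 libraries). Its most abundant member Serping1 averaged 131 ± 76.5 CPM in HFD and 117.3 ± 54.3 in CD. Serpinb6a alone of the 6 had an unadjusted edgeR p under 0.05 (0.0485), and is named after its values were seen. Its log2 fold change was 0.75, and 0.15 without the 2 libraries, where it stood at 124 CPM (HFD 4) and 93.1 CPM (HFD 8). Serine proteases, the possible targets, had 11 of 17 tested, 7 above 0 and 4 below (median 1.002, and 0.14 without the 2 libraries). Of the 11, 3 had an unadjusted edgeR p under 0.05 with all 16 libraries, where 11.3% of all genes did, and not with 14. They were the sperm proteases Prss21, Prss39 and Prss54, and Prss21 and Prss54 are named after their values were seen. Plau, Prss8 and St14, next in mean CPM after Prss39, had log2 fold changes of -0.06, -0.01 and -0.40. Prss39 averaged 133 ± 155 CPM in HFD and 48.0 ± 27.2 in CD, and reached 355 in HFD 4 and 409 in HFD 8, where late spermatid sums were also highest. The part of those sums in the protease values was not tested.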

How the data were processed

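The authors deposited raw counts of reads for each gene symbol, with the libraries as columns. STAR, HTSeq 1.0.0, DESeq2 1.0.19 and mm10 appear in the submitters' processing notes without role or order. For the counting, neither annotation nor strand setting is given in the sources used here. The 5 summary rows that name no gene were left out of library sizes and tests. No molecular identifier is named, so amplified copies count as reads.

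From these counts, diets were compared with edgeR 4.0.16 (R 4.3.3): TMM factors, the default expression filter by diet, a robust quasi-likelihood fit with diet as the sole term, two-sided tests, and Benjamini-Hochberg adjustment over 13149 genes with a threshold of 0.05. DESeq2 1.42.0 and limma 3.58.1 (voom with quality weights) were alternatives. The fit was tested on simulated data. Single genes are given in TMM-scaled CPM, and sums of marker lists in CPM of gene totals. Correlations used log2 CPM with a prior count of 2 and permutation tests with 100000 resamples (SciPy 1.17.1), for which the smallest possible p is 1e-05. Levels per length used the union of GENCODE exons. Pairs of libraries of 1 diet differed far beyond sampling noise, with chi-square values of at least 12.66 per degree of freedom, so none was counted as a copy.

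The 6 genes are all named. Of each related list the tested genes are counted and up to 4 of the most abundant named, and for each of the 6 the 3 nearest genes by Spearman's rho are named, except 1 that is not reported here. Genes and lists were chosen with earlier results of these data known, and the correlations with 29 further genes were added after the data were seen. HFD and CD libraries share title numbers, which were not taken to pair animals.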

Additional observations from a re-analysis of the deposited data

Results flagged for a closer look

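Each gene was checked for a single library far from the rest of its diet, by the gap to the nearest library divided by the range of the 8, against Dixon's 95% critical value. Of 12 such groups, taken in CPM without logs, 2 passed. Chance gives about 1 in 20 where values follow a normal distribution, which was not checked for CPM. Spinkl stood at 57.5 CPM in CD 1, with the next CD library at 33.9 CPM and a gap of 0.564 of the range. Wfdc2 stood at 14.6 CPM in HFD 1, with the next HFD library at 7.74 CPM and a gap of 0.598 of the range. Neither library is HFD 4 or HFD 8, but the check looks for a single library and does not flag 2 low ones that neighbour each other. For Spink8, HFD 8 (1573 CPM) had HFD 4 (2948 CPM) as its nearest library, and the other HFD libraries stood at 10961 CPM or more. The check therefore does not decide whether HFD 4 and HFD 8 stand apart.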

How the results depend on the processing

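Across 27 alternatives no adjusted p of the 6 genes fell below 0.393, and the lowest unadjusted p was 0.139, for Wfdc2. Log2 fold changes turned above 0 with limma-voom for Spink8 (0.037), Spinkl (0.12), Wfdc2 (0.11) and Wfdc8 (0.077), without HFD 4 and HFD 8 for Spink8 (0.12), Spinkl (0.13), Wfdc8 (0.18) and Eppin (0.024), and with those 2 left out and epididymal scaling, an alternative chosen after seeing the data, for Wfdc8 (0.023). Leaving out single libraries gave -0.35 to 0.043 for Spinkl, above 0 without CD 1, and -0.69 to -0.02 for Wfdc2, -0.40 to -0.02 for Wfdc8, -0.36 to -0.06 for Spink8, -0.53 to -0.20 for Wfdc13 and -0.38 to -0.13 for Eppin. The causes were not tested.

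Genes past the adjusted threshold numbered 1 with DESeq2 and 0 otherwise. Genes at an unadjusted p under 0.05 numbered 1482, against 500 with limma-voom, 2258 with DESeq2, 2518 without a filter, 3365 with epididymal scaling, 516 without HFD 4, 689 without HFD 8, 292 without both, and 650 with both left out and epididymal scaling. By Pearson's r, pairs of the 6 genes past the correlation threshold numbered 1, against 11 with all 16 libraries and 2 with epididymal scaling. The mean levels per length of the 6 genes moved by less than 1 SD of the 16 libraries in all alternatives. Leaving out 1 or 2 of 16 libraries cannot move a mean that far, so only the longest transcript as length could have failed.

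With the title number as a replicate block, 314 genes had an unadjusted p under 0.05 and the log2 fold changes were -0.44 for Spink8, -0.39 for Spinkl, -0.60 for Wfdc13, -0.21 for Wfdc2, -0.48 for Wfdc8 and -0.41 for Eppin, with no call. Libraries sharing a number correlated at -0.395 to 0.605, with 4 of 8 pairs over 0.1, and 2 of 8 HFD libraries correlated best with their own number. Depth limits Wfdc2 and Spinkl most, with as few as 7 and 9 reads.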
